A study of Mus musculus with 12 samples.

Results

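Replication licensing factors are the proteins that load the replicative helicase onto origins of DNA replication and the inhibitor that keeps them from doing so again. The 10 genes described here are the origin recognition subunit Orc6, the loading factors Cdc6 and Cdt1, the inhibitor geminin (Gmnn) and the helicase subunits Mcm2, Mcm3, Mcm4, Mcm5, Mcm6 and Mcm7. They were taken by symbol from the 23235 genes of a table of polysome-bound RNA in mouse oocytes, and all 10 were present and were tested. Polysome-bound RNA, that is messages carrying several ribosomes, was sequenced from oocytes of C57BL/6 mice at postnatal day 21. Wild-type (WT) and Cnot6l-/- oocytes were sampled at 3 stages, with 2 libraries in each of 6 groups. Germinal vesicle (GV) oocytes, arrested in meiotic prophase, came 48 h after PMSG, a gonadotropin that makes follicles grow. Metaphase I (MI) oocytes had been cultured for 8 h and metaphase II (MII) oocytes, the mature eggs, for 16 h. Cnot6l encodes a catalytic deadenylase subunit of CCR4-NOT, the main complex that shortens poly(A) tails. The labels give neither the part of Cnot6l that was deleted nor whether the libraries of a group came from separate animals, so p-values here measure only the spread between these libraries.

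Licensing proceeds in steps. The origin recognition complex marks origins, Cdc6 and Cdt1 then place the ring of Mcm2 to Mcm7 on the DNA, and geminin binds Cdt1 and blocks further loading. A maturing oocyte passes through its meiotic divisions without a round of DNA replication between them, and the egg then replicates its DNA soon after fertilization with proteins made from maternal messages. A fully grown oocyte makes almost no new RNA, so the messages on polysomes change through translation and decay. Many messages that join polysomes during maturation carry U-rich cytoplasmic polyadenylation elements near the 3′ end, where the poly(A) tail is lengthened.

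Values are FPKM, which divide the fragments of a gene by transcript length and by the size of the library, so levels of different genes can be compared per length within a library. The totals of the 12 libraries ran from 884142 to 1663871 FPKM, and replicates correlated across genes with r between 0.865 and 0.949. Depth in reads is unknown. Changes are log2(FPKM + 1) differences from limma over the 11667 genes that averaged 1 FPKM or more, and a gene is called at a Benjamini-Hochberg adjusted p below 0.05. The median of all tested genes itself moved by -0.87 from GV to MI and by -0.27 from MI to MII in WT oocytes, and by 0.26 and -0.59 in Cnot6l-/- oocytes. Between genotypes it stood at -0.06 at GV, 1.03 at MI and 0.81 at MII, knockout minus WT. Changes were therefore also computed relative to the median of all tested genes, and with median-scaled libraries. For that scaling each library was divided by its median ratio to the genes' geometric means, over 5734 genes above 0 in every library. It did not centre all tested genes: their median was still -0.31 from GV to MI in WT. Knockout minus WT that median was 0.20 at MI and 0.40 at MII after scaling. Each call of a member that this scaling ended or made is given. Cnot6l itself read 38.7 and 16.1 FPKM in WT and 6.28 and 21.6 in knockout libraries at GV, where the groups overlapped, but 68.5 and 47.9 against 23.5 and 16.5 at MI and 65.2 and 49.4 against 16.4 and 16.0 at MII. Of 17 oocyte markers 16 were above 1 FPKM in every library, the exception being Sohlh1. Serpine2 gave most of the summed level of 18 cumulus and granulosa markers, 690.03 to 1268 FPKM against 41603 to 116038 for the oocyte markers. The granulosa-defining factor Foxl2 was at 0 throughout, but 10 of the 18 were above 1 FPKM in both WT GV libraries. Among them Inha read 201 and 239 FPKM there.

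The 3′ ends of these messages are shown first because the values by stage are set beside them further on. The motifs TTTTAT and TTTTAAT, common forms of the cytoplasmic polyadenylation element, were searched on the transcript strand in the last 100 bases of the annotated 3′ UTR (GENCODE mouse release 1 on the mouse build 9 genome, the build of the files). Capitals mark these motifs and the polyadenylation signals AATAAA and ATTAAA.
Orc6 (chr8:87832148-87832177, plus strand): tcaagcccAATAAAtgttatTTTTATatgc
Gmnn (chr13:24843784-24843813, minus strand): gtatTTTTAATccgTTTTATgtaaatagca
Mcm2 (chr6:88833477-88833506, minus strand): tattTTTTAATagatttgAATAAAacctaa
Mcm4 (chr16:15624054-15624083, minus strand): taatTTTTATagatccttagattattagtt
Cdt1 (chr8:125096980-125097009, plus strand): tggcTTTTAATAAAgtcatgtaagatttaa
Mcm5 (chr8:77652300-77652329, plus strand): tctgccttctgagtactgggATTAAAagtg
Mcm6 (chr1:130228179-130228208, minus strand): ccactgcttttacccatgaaAATAAAacaa
Cdc6 (chr11:98785208-98785237, plus strand): tatggaaagaacatagactcAATAAAgttg
At least 1 motif lay in this window in 6 of the 10 members, Orc6, Gmnn, Mcm2, Mcm4, Cdt1 and Mcm7, against 20.2% of the 10318 tested genes with such a window. In Cdt1 the motif overlaps the polyadenylation signal itself. In Orc6 the motif lies downstream of the signal, starting 10 bases from the end, where the signal starts 22 from it. In Gmnn, Mcm2, Mcm4 and Mcm7 the motifs start upstream of the signals. Gmnn alone among the members held 2 motifs in the window. Mcm3, Mcm5 and Mcm6 had none anywhere in the annotated 3′ UTR, whereas Cdc6 had 3 farther from the end. The window of Mcm3 alone held no polyadenylation signal. Its annotated end lay 40 bases from the deposited gene end, against 0 to 6 for the other members. Counting Mcm3 as a gene without a motif is therefore less certain. In Mcm4 the motif belongs to the longer of its annotated 3′ UTRs, and the end that lies 208 bases earlier has none in its last 100 bases. A match is a description of these letters and does not show that a protein binds there, and the search was chosen after the values of the members had been seen.

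Orc6, the origin recognition subunit (chromosome 8, 87823531 to 87832178, mouse build 9, plus strand), rose on polysomes at both steps of WT maturation. Its level was 154 and 116 FPKM in the WT GV libraries, then 442 and 403 in those of MI, then 605 and 624 in those of MII, so no library of a later stage overlapped an earlier one. The change from GV to MI was 1.65 ± 0.17 (SE; 3.14-fold, adjusted p = 0.000134), or 2.52 relative to all tested genes, which placed Orc6 at percentile 98.6. From MI to MII it rose by a further 0.54 ± 0.17 (adjusted p = 0.0466), a call lost without either WT MI, WT MII, knockout GV or knockout MI library and without knockout MII replicate 2 (adjusted p from 0.0512 to 0.175). In Cnot6l-/- oocytes GV libraries read 164 and 173 FPKM, MI libraries 438 and 503, MII libraries 449 and 561. The first step was a rise of 1.47 ± 0.17 (adjusted p = 0.000283), and the second measured 0.10 ± 0.17 (adjusted p = 0.803). Whether such a change comes from more messages or from more of them on polysomes cannot be told apart in polysome-bound RNA alone, nor can fewer oocytes with a message and less of it per oocyte.

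The other subunits of the origin recognition complex are set beside Orc6. Orc1, the large ATPase subunit, rose from 43.0 and 50.2 FPKM at WT GV to 82.2 and 103 at MI (0.97 ± 0.24, adjusted p = 0.0163) and was 79.8 and 80.2 at MII. Orc5 fell from 472 and 449 FPKM to 289.9 and 213 (-0.89 ± 0.17, adjusted p = 0.00471), which is -0.02 relative to all tested genes, and with median scaling it was not called (-0.21, adjusted p = 0.479). Orc2, Orc3 and Orc4 were called at neither WT step. At WT GV the level of Orc5 was above that of Orc6 in both libraries, and at WT MII Orc6 stood above every other subunit, with Orc5 at 294 and 271 FPKM.

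Gmnn, the inhibitor of Cdt1 (chromosome 13, 24843714 to 24853806, minus strand), had the highest mean level of the 10 genes in 5 of the 6 groups, all but WT MII. It read 312 and 256 FPKM at WT GV, 818 and 820.2 at MI, then 435 and 285 at MII. The WT MI libraries lay far above both other WT stages. The rise to MI was 1.53 ± 0.20 (adjusted p = 0.000465; 2.40 relative), and the fall to MII was -1.21 ± 0.20 (adjusted p = 0.00148; -0.95 relative). In Cnot6l-/- oocytes Gmnn read 352 and 291 FPKM at GV, 721 and 829.8 at MI, then 677 and 759.55 at MII. It rose to MI there too (1.27 ± 0.20, adjusted p = 0.00178), and the change to MII was -0.11 ± 0.20 (adjusted p = 0.803), or 0.47 with median scaling (adjusted p = 0.456). At MII the knockout was 1.02 ± 0.20 higher than WT (2.03-fold, adjusted p = 0.00317), which is 0.21 relative to all tested genes and was not called with median-scaled libraries (0.42, adjusted p = 0.161).

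Cdt1, the loading factor that geminin inhibits, read 238 and 243 FPKM at WT GV, then 191 and 129.8 at MI, then 136 and 163 at MII. Neither WT step was called (-0.61 ± 0.24, adjusted p = 0.088, and -0.08 ± 0.24, adjusted p = 0.889), although both MI libraries were below both GV libraries. Without WT MI replicate 1 the first was -0.88 (adjusted p = 0.0462). The sign of both turned with the scaling: relative to all tested genes they were 0.26 and 0.19, and with median-scaled libraries 0.06 and 0.14 (adjusted p = 0.895 and 0.727). In Cnot6l-/- oocytes it read 147 and 203 FPKM at GV, 270.1 and 311 at MI, then 184 and 146 at MII, with both MI libraries above the rest. The knockout steps were 0.75 ± 0.24 (adjusted p = 0.0823) and -0.82 ± 0.24 (adjusted p = 0.0677), and the second was called without either WT MII library (adjusted p = 0.0424 and 0.0427). At MI the knockout was 0.88 ± 0.24 higher than WT (adjusted p = 0.0223), but -0.15 relative to all tested genes. Within each library the ratio of Gmnn to Cdt1, which no scaling changes, was 1.31 and 1.06 for WT GV, 4.29 and 6.32 for MI, 3.21 and 1.75 for MII. In Cnot6l-/- libraries it was 2.40 and 1.44 for GV, 2.67 and 2.67 for MI, 3.67 and 5.19 for MII. The highest WT ratios were thus at MI and the highest knockout ratios at MII. The genotypes did not overlap at any of the 3 stages, with the knockout ratios higher at GV and MII and lower at MI. How often ratios of other gene pairs separate in this way was not computed.

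Cdc6, the ATPase that works with Cdt1 in loading, was among the lowest members, and each later WT stage read lower than the one before. It read 38.2 and 37.6 FPKM at WT GV, 13.7 and 15.6 at MI, then 7.38 and 0.18 at MII. No step was called (-1.32 ± 0.77, adjusted p = 0.238, and -2.31 ± 0.77, adjusted p = 0.0572). The WT MII libraries differed widely, and without WT MII replicate 1 the second step was -3.73 (adjusted p = 0.000869). The first was called without either WT MII library (adjusted p = 0.0472 and 0.0413). Cnot6l-/- libraries read 50.5 and 63.9 FPKM at GV, 21.1 and 26.1 at MI, then 8.52 and 21.8 at MII, with steps of -1.24 ± 0.77 and -0.73 ± 0.77 that were not called (adjusted p = 0.43 and 0.651). They were above the WT libraries at every stage without overlap, as were 17.9%, 69.5% and 48.9% of all tested genes at GV, MI and MII. With median scaling the order held at GV, the libraries overlapped at MII, and at MI the knockout read lower without overlap (-0.27, adjusted p = 0.926, against 0.65 as deposited). None of these differences was called as deposited (adjusted p = 0.916, 0.527 and 0.0541), and the last was 3.64 without WT MII replicate 1 (adjusted p = 0.000806). The ratio of Orc6 to Cdc6 went from 4.05 and 3.08 at WT GV to 32.3 and 25.9 at MI, and from 3.24 and 2.71 to 20.7 and 19.3 in the knockout.

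**Figure D1:**
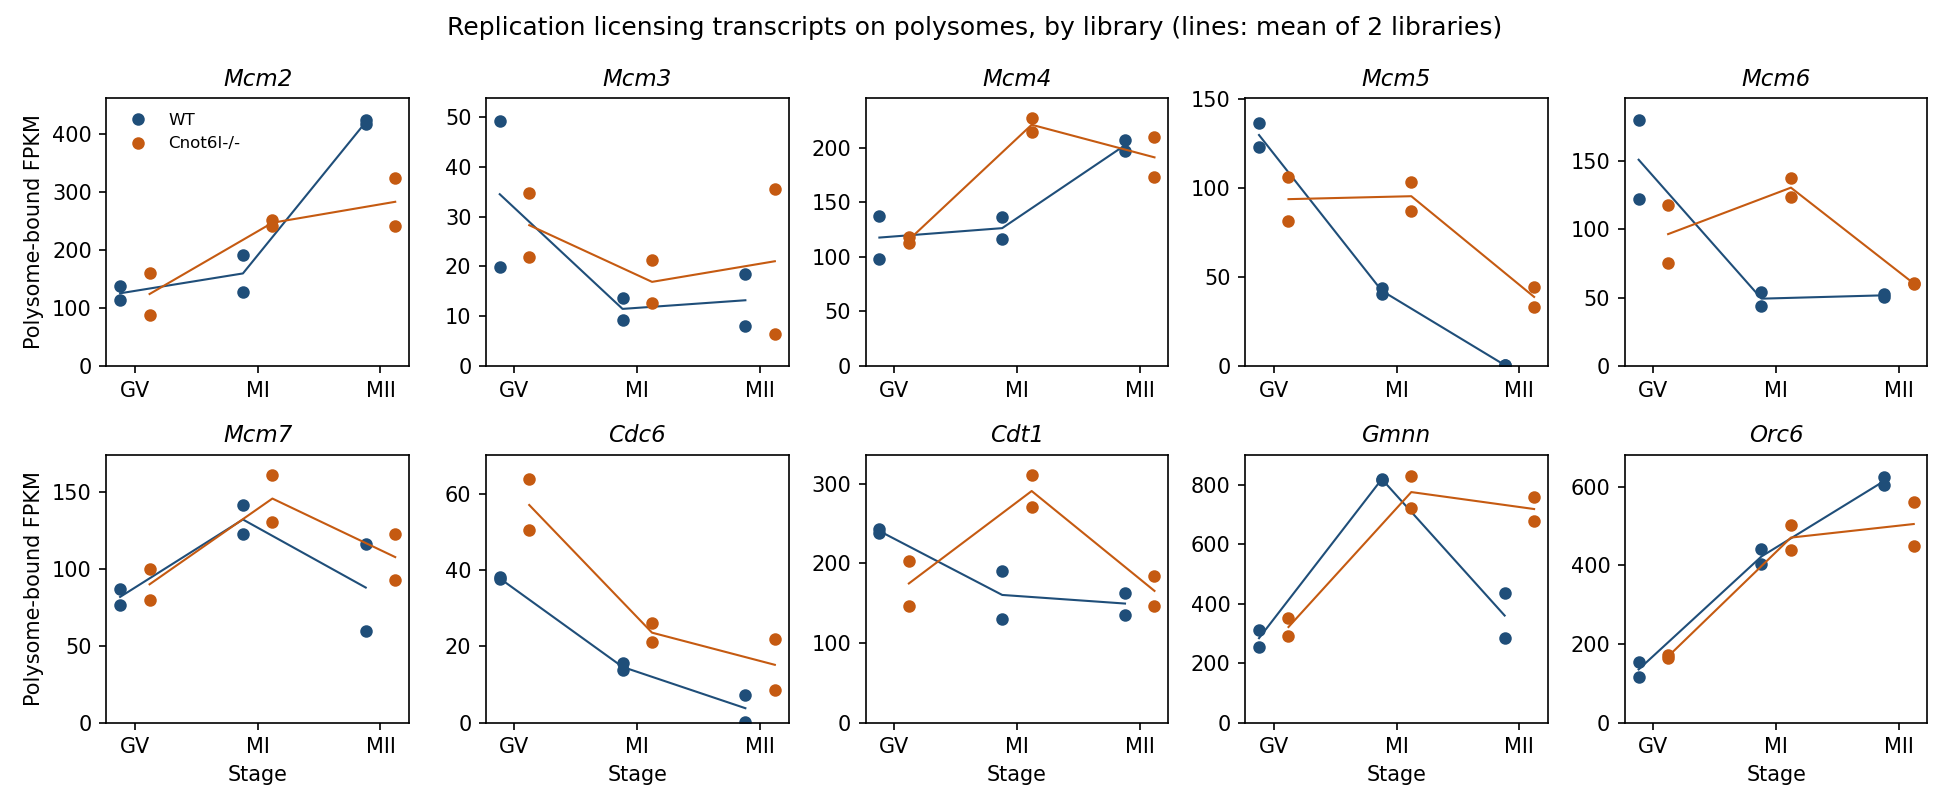
Polysome-bound FPKM (vertical axes, starting at 0 and differing between panels) of the 10 licensing genes by stage, with 1 point per library and lines through the mean of 2 libraries. WT Mcm5 drops to 0.56 and 0.54 at MII while WT Mcm2 reaches 419 and 424 and Orc6 605 and 624.

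The subunits of the Mcm2 to Mcm7 helicase, which sit in the ring in equal number, took separate courses in WT oocytes. Mcm2 (chromosome 6, 88833468 to 88848774, minus strand) rose from MI to MII. It read 137 and 114 FPKM at WT GV, 128 and 192 at MI, then 419 and 424 at MII, with the MII libraries far above the overlapping earlier ones. The step from MI to MII was 1.42 ± 0.29 (2.68-fold, adjusted p = 0.00576; 1.69 relative). The step from GV to MI was 0.32 ± 0.29 (adjusted p = 0.44; 1.19 relative), and with median-scaled libraries, which did not overlap there, it was called (0.99, adjusted p = 0.0465). Mcm4 rose at the same step, with 137 and 98.1 FPKM at GV, 117 and 136 at MI, then 207 and 198 at MII. Its late step was 0.68 ± 0.21 (adjusted p = 0.0379), a call lost without either WT MI, WT MII or knockout MI library and without knockout MII replicate 2 (adjusted p from 0.0502 to 0.159). Its first step of 0.12 ± 0.21 (adjusted p = 0.707) was called with median scaling too (0.79, adjusted p = 0.0278).

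Mcm5 (chromosome 8, 77633427 to 77652338, plus strand) fell at both steps and read below 1 FPKM on polysomes of WT eggs. It read 123 and 137 FPKM at WT GV, 44.0 and 40.6 at MI, then 0.56 and 0.54 at MII. The fall to MI was -1.59 ± 0.30 (adjusted p = 0.00405; -0.73 relative), and with median scaling it was no longer called (-0.93, adjusted p = 0.0682). The fall to MII was -4.80 ± 0.30 (adjusted p = 2.43e-06; -4.54 relative), at percentile 0.334 of all tested genes. On the log2(FPKM + 1) scale this understates the change, since the MII level is below the pseudocount. Mcm6 fell at the first step, from 122 and 180 FPKM at GV to 54.3 and 44.3 at MI (-1.58 ± 0.28, adjusted p = 0.00313; -0.71 relative), and was 50.7 and 52.8 at MII (0.08 ± 0.28, adjusted p = 0.926). That fall too was not called with median scaling (-0.91, adjusted p = 0.0566).

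Mcm7 and Mcm3 gave no call in WT as deposited. Mcm7 read 87.3 and 76.4 FPKM at GV, 123 and 142 at MI, then 59.9 and 116 at MII, highest at MI without overlap (0.69 ± 0.31, adjusted p = 0.137). With median-scaled libraries its rise to MI was called (1.36, adjusted p = 0.0147), as it was without either WT MII library (adjusted p = 0.0404 and 0.0423). The change to MII was -0.66 ± 0.31 (adjusted p = 0.173), and -1.13 without WT MII replicate 2 (adjusted p = 0.0157). Its reads are uncertain, because its exons overlap those of Cops6 on the opposite strand and the transposase-based library kit does not mark strand. Mcm3 was the lowest subunit at GV and MI, with 49.2 and 19.9 FPKM at GV, 13.6 and 9.33 at MI, then 7.95 and 18.5 at MII. Its replicates differed so much that an SE of 0.76 stood beside its change of -1.40 to MI (adjusted p = 0.203). In the knockout neither was called at either step. Mcm7 read 79.8 and 100.3 FPKM at knockout GV, 131 and 161 at MI, then 92.7 and 123 at MII, again highest at MI without overlap (0.69 ± 0.31, adjusted p = 0.235). Mcm3 read 21.9 and 34.7, then 21.2 and 12.6, then 6.45 and 35.7.

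As a share of the Mcm2 to Mcm7 sum within a library, which no scaling changes, Mcm5 went from 18.7% and 21.9% at WT GV to 9.18% and 7.19% at MI and to 0.0752% and 0.0667% at MII. Mcm2 went over the same stages from 20.9% and 18.2% to 26.7% and 34.1% and then to 56.2% and 52.4%. In Cnot6l-/- libraries Mcm5 held 15.3% and 18.8% at GV, 10.4% and 11.9% at MI, then 5.50% and 5.54% at MII. Mcm2 held 39.8% and 40.7% at knockout MII, less than in either WT MII library. The ratio of Mcm5 to Mcm2 was 0.896 and 1.20 at WT GV and 0.507 and 1.21 at knockout GV, 0.344 and 0.211 against 0.346 and 0.427 at MI, and 0.00134 and 0.00127 against 0.138 and 0.136 at MII. At MII the ratio was thus separated between the genotypes by far more than the gap between replicates. The summed level itself ranged from 479 to 872 FPKM and did not follow stage in a common direction.

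**Figure D2:**
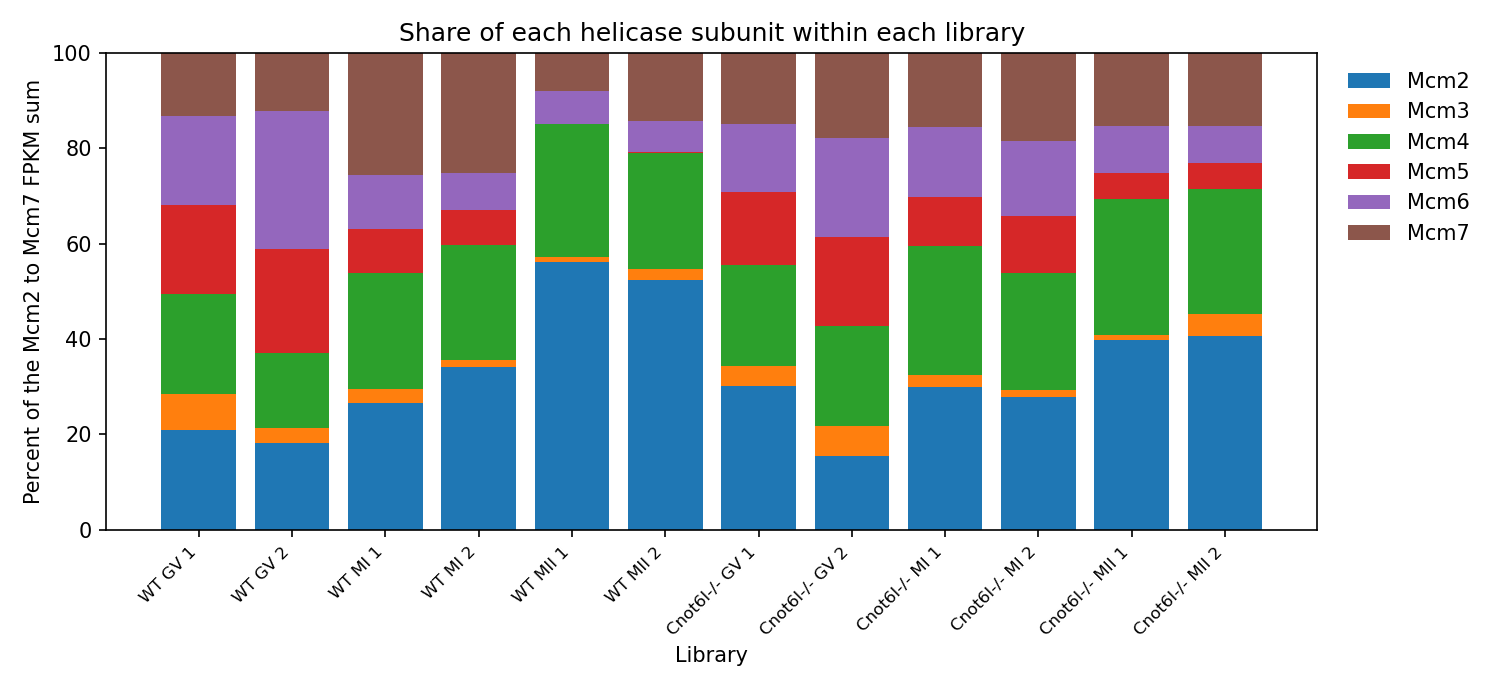
Share of each subunit (percent of the Mcm2 to Mcm7 FPKM sum, vertical axis from 0 to 100) in each of the 12 libraries (horizontal axis). Mcm5 holds 0.0752% and 0.0667% in the WT MII libraries and 5.50% and 5.54% in the Cnot6l-/- MII libraries, and Mcm2 takes 52.4% to 56.2% of the sum at WT MII.

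Counted over the members, the first WT step had 2 genes called higher (Gmnn and Orc6) and 2 lower (Mcm5 and Mcm6), against 3.06% and 21.7% of all tested genes. With median-scaled libraries 5 were called higher (Mcm2, Mcm4, Mcm7, Gmnn and Orc6) against 7.08% of genes, and 0 lower against 7.67%. The median change of the 10 was -0.25, against -0.87 for all tested genes. The second WT step had 3 called higher (Mcm2, Mcm4 and Orc6) and 2 lower (Mcm5 and Gmnn), against 5.68% and 16.4%. The same 5 were called with median scaling, against 9.08% and 15.1%. In the knockout the first step had 4 called higher (Mcm2, Mcm4, Gmnn and Orc6) against 8.89%, and limma called 0 lower against 1.35%, with 0 lower at an unadjusted p under 0.05. With median scaling 2 (Gmnn and Orc6) were higher against 4.23% and 0 lower against 2.32%. The second knockout step had 2 lower (Mcm5 and Mcm6) against 7.18%. It had 0 higher by limma against 0.163%, again with 0 at an unadjusted p under 0.05. With median scaling 0 were called in either direction, against 0.847% higher and 0.683% lower. The comparisons of successive stages share the MI libraries, so they are not independent of each other. The median change of the 10 was -0.0023 in the second WT step, against -0.27 for all tested genes, and 0.72 and -0.33 in the knockout steps, against 0.26 and -0.59.

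Libraries of neighbouring stages did not overlap in 3 members that were higher and 5 that were lower at the first WT step, against 9.38% and 55.2% of all tested genes. At the late WT step these were 3 higher and 4 lower, against 17.5% and 30.8%. In the knockout they were 7 higher and 2 lower (Mcm3 and Cdc6) at the first step, against 37.3% and 18.7%, and 0 higher and 5 lower at the late step, against 5.67% and 54.9%. Between genotypes 2 members were higher in the knockout without overlap at GV (Cdc6 and Orc6), 6 at MI and 4 at MII, against 17.9%, 69.5% and 48.9%, and 3, 0 and 2 were lower, against 24.2%, 3.13% and 10.6%.

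**Figure D3:**
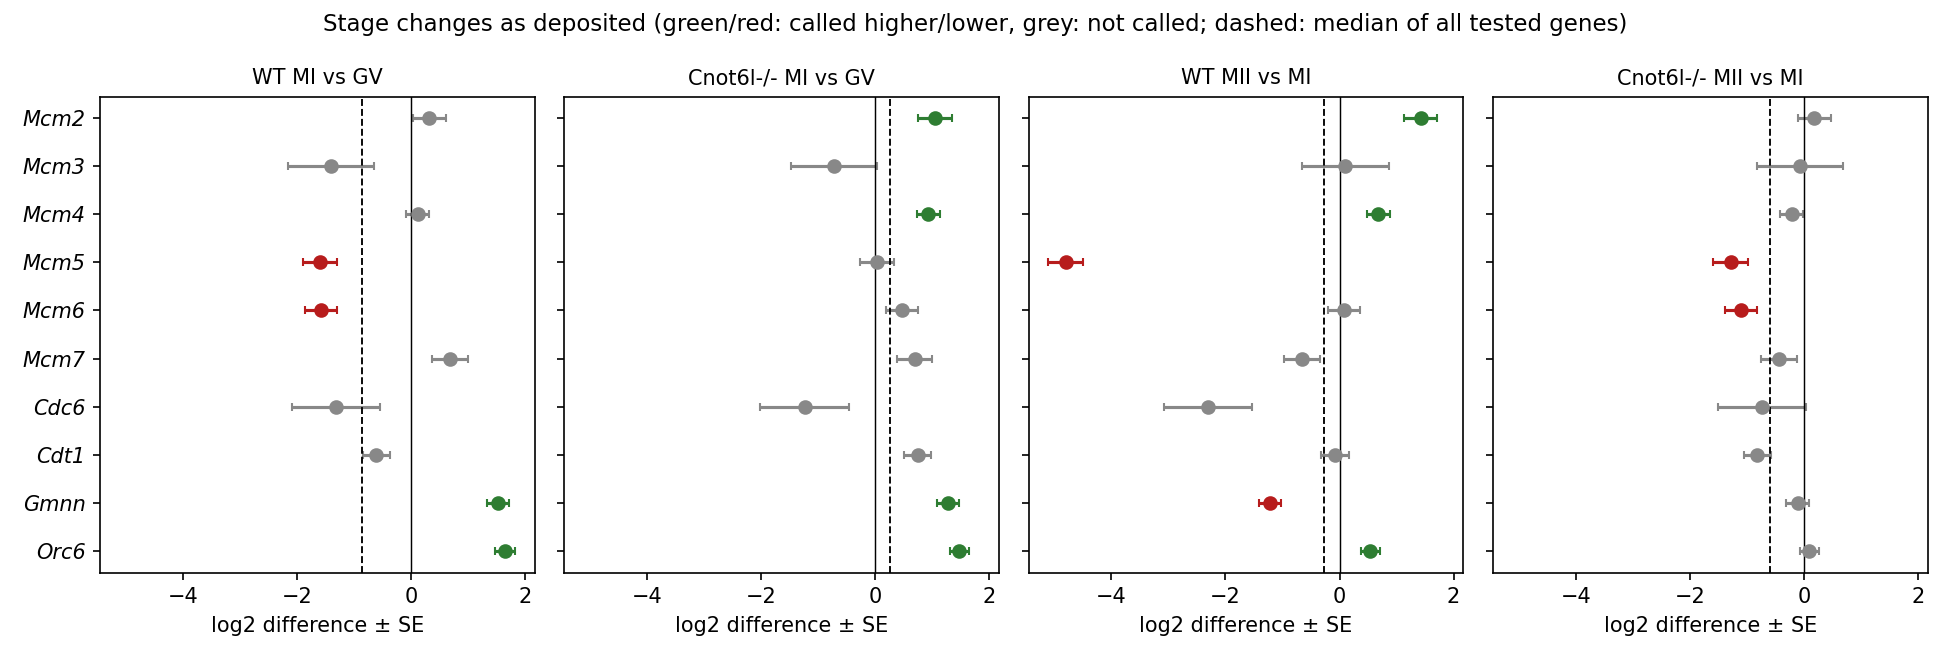
log2(FPKM + 1) difference of each licensing gene (rows) from GV to MI and from MI to MII in WT and Cnot6l-/- oocytes, with bars of 1 SE, as deposited. Mcm5 stands at -4.80 in the late WT step and at -1.28 in the late knockout step, while Orc6 is right of the dashed median of all tested genes in each panel; the calls of Mcm5 and Mcm6 in the first WT step are lost with median scaling.

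In Cnot6l-/- oocytes Mcm2 and Mcm4 rose at the first step and Mcm5 and Mcm6 fell at the second, and with median-scaled libraries none of these 4 changes was called. Mcm2 rose from 161 and 88.1 FPKM at knockout GV to 252 and 242 at MI (1.05 ± 0.29, adjusted p = 0.0461) and read 242 and 325 at MII (0.18 ± 0.29, adjusted p = 0.78). Mcm4 rose from 113 and 118 FPKM to 228 and 215 (0.93 ± 0.21, adjusted p = 0.0155) and was 173 and 209.5 at MII. With median scaling the early rises measured 0.67 and 0.55 (adjusted p = 0.276 and 0.185). The Mcm2 rise was also lost without either WT GV, knockout MI or knockout MII library and without knockout GV replicate 2 (adjusted p from 0.0602 to 0.279), and the Mcm4 rise without either knockout GV or knockout MI library (adjusted p from 0.0591 to 0.116). Mcm5 read 81.4 and 106 FPKM at GV, 87.3 and 104 at MI, then 33.4 and 44.2 at MII, a late fall of -1.28 ± 0.30 (adjusted p = 0.0296). Mcm6 read 75.5 and 118 FPKM, then 124 and 138, then 59.7 and 61.1, a late fall of -1.10 ± 0.28 (adjusted p = 0.0446). The late falls were -0.69 and -0.51 relative to all tested genes and -0.71 and -0.52 with median scaling (adjusted p = 0.451 and 0.617). Both were lost without either WT GV, knockout MI or knockout MII library (adjusted p from 0.0518 to 0.255).

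Knockout and WT oocytes were then compared at each stage. At GV limma called 0 members in either direction, against 0.163% of genes higher and 1.4% lower in the knockout. At an unadjusted p under 0.05 there was 1, Mcm6, at 0.639-fold (-0.65, 95% interval -1.28 to -0.02, adjusted p = 0.459). At MI 4 members were called higher, Mcm4 (0.81 ± 0.21, adjusted p = 0.0172), Mcm5 (1.15 ± 0.30, adjusted p = 0.0193), Mcm6 (1.39 ± 0.28, adjusted p = 0.00629) and Cdt1, against 27.9% of all genes. Relative to all tested genes these were -0.22, 0.12, 0.36 and -0.15, and with median-scaled libraries Mcm4 and Cdt1 changed sign (-0.155 and -0.0848, adjusted p = 0.768 and 0.908). With that scaling 0 members were called higher, against 2.14% of genes, and Gmnn and Orc6 were called lower (-1.05 and -0.81, adjusted p = 0.0169 and 0.0243), against 2.47%. Without knockout MI replicate 2 none of the 4 was called as deposited (adjusted p from 0.0584 to 0.136), and without knockout MI replicate 1 Mcm6 alone was (adjusted p from 0.0736 to 0.1 for the rest). Mcm4 was also lost without WT MI replicate 1 (adjusted p = 0.0824), and Mcm5 and Cdt1 without WT MI replicate 2 (adjusted p = 0.0644 and 0.13). limma called 0 members lower at MI as deposited, against 0.463% of genes, with 0 at an unadjusted p under 0.05.

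At MII the genotypes differed most in Mcm5, with 33.4 and 44.2 FPKM in the knockout against 0.56 and 0.54 in WT. The difference was 4.67 ± 0.30 (95% interval 4.0 to 5.34, adjusted p = 2.23e-06), or 3.85 relative to all tested genes at percentile 99.4. It was called in all 18 alternative fits, with adjusted p between 1.74e-06 and 0.033. Mcm5 and Gmnn were the 2 members called higher, against 25.4% of all genes. limma called 0 lower, against 3.2%, with 0 at an unadjusted p under 0.05. With median scaling Mcm5 was the 1 member called higher (4.43, adjusted p = 7.96e-06), against 16.2%, and Mcm2 (-1.19, adjusted p = 0.0148), Mcm4 (-0.69, adjusted p = 0.0336) and Orc6 (-0.90, adjusted p = 0.00405) were called lower, against 8.39%. As deposited those 3 measured -0.58, -0.09 and -0.29 (adjusted p = 0.164, 0.797 and 0.24). This comparison shares the WT MII libraries with the late WT step, so its Mcm5 value does not stand apart from the fall described there.

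The difference between the genotypes' steps was tested itself. From GV to MI the knockout minus WT difference of steps was 2.04 ± 0.40 for Mcm6 (adjusted p = 0.00924), 1.63 ± 0.43 for Mcm5 (adjusted p = 0.0305) and 1.36 ± 0.34 for Cdt1 (adjusted p = 0.0249). These 3 calls stood against 14.4% of all genes called in that direction, the median of all tested genes was 1.13, and none of the 3 was called with median scaling (adjusted p = 0.338, 0.679 and 0.818), when 0.649% of genes were. Orc6 was then called lower (-1.23, adjusted p = 0.0342), against 0.934%. As deposited Mcm5 and Cdt1 lost the call without either WT GV or knockout MI library, without WT MI replicate 2 and without knockout GV replicate 1 (adjusted p from 0.0591 to 0.128). limma called 0 lower against 0.266%, with 0 at an unadjusted p under 0.05. From MI to MII the difference of steps was 3.52 ± 0.43 for Mcm5 (adjusted p = 0.000992; 3.77 relative) and 1.11 ± 0.28 for Gmnn (adjusted p = 0.0412; 1.36 relative), against 2.81% of genes called in that direction. Both were called with median scaling as well (4.23 and 1.47, adjusted p = 0.000259 and 0.0141), against 4.58% of genes, with 0 lower against 1.76%. The Gmnn call was lost in each fit without 1 library (adjusted p from 0.0515 to 0.162) except the fit without WT MII replicate 1. As deposited limma called 0 lower against 3.71%. At an unadjusted p under 0.05 there were 3, Mcm2 (-1.24, adjusted p = 0.114), Mcm4 (-0.89, adjusted p = 0.106) and Mcm6 (-1.17, adjusted p = 0.124), so a smaller late rise of Mcm2 in the knockout was not established by this test.

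**Figure D4:**
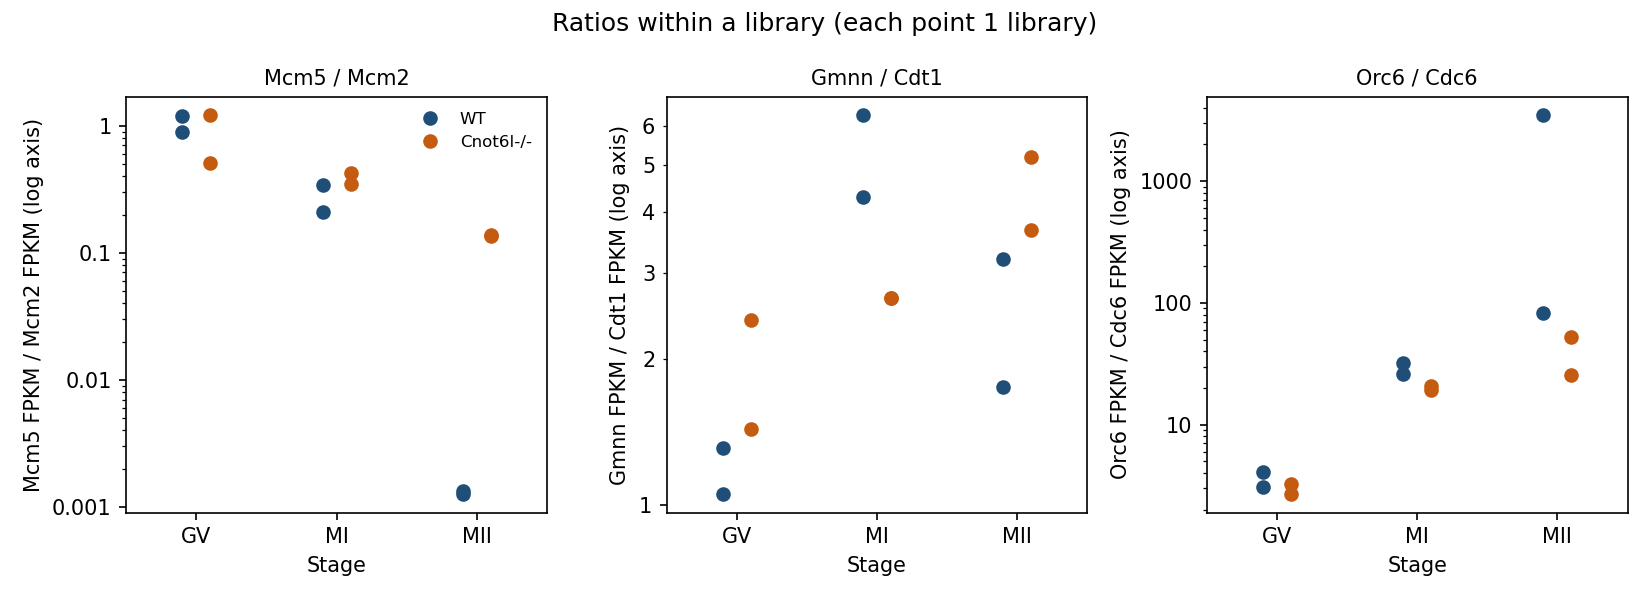
Ratios of FPKM within each library (log axes) for Mcm5 to Mcm2, Gmnn to Cdt1 and Orc6 to Cdc6, by stage, with 1 point per library. Mcm5 to Mcm2 is 0.00134 and 0.00127 in the WT MII libraries and 0.138 and 0.136 in the Cnot6l-/- MII libraries.

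The order of the members by level changed with stage. At WT GV it ran from Gmnn (284 FPKM) and Cdt1 (240.5), which did not overlap, through Mcm6, Orc6, Mcm5, Mcm2 and Mcm4 (151 to 118), whose libraries overlapped, to Mcm7 (81.8), Cdc6 (37.9) and Mcm3 (34.5), with the last 2 overlapping. At WT MII it ran from Orc6 (615 ± 12.9, SD, n = 2) to Mcm2 (421 ± 3.90) and Gmnn (360.04 ± 106), which overlapped, then Mcm4 (202), Cdt1 (149), Mcm7 (87.9) and Mcm6 (51.8), and last Mcm3 (13.2), Cdc6 (3.78 ± 5.09) and Mcm5 (0.55 ± 0.0141). Cdc6 and Mcm5 overlapped there. Among all 23235 genes the mean of Mcm5 went from percentile 92.3 at WT GV to 59.4 at WT MII, and stood at 85.8 at knockout MII. Most genes read 0 in each WT MII library, where 9116 and 9064 were above 0. Against these, 12554 and 12616 were above 0 at WT GV and 12112 and 11936 at knockout MII, so the percentiles rest on unlike numbers of zeros. At knockout MII Gmnn led (718 ± 58.4), followed by Orc6 (505 ± 79.8) and Mcm2 (284 ± 59.1), with no overlap between these 3.

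**Figure D5:**
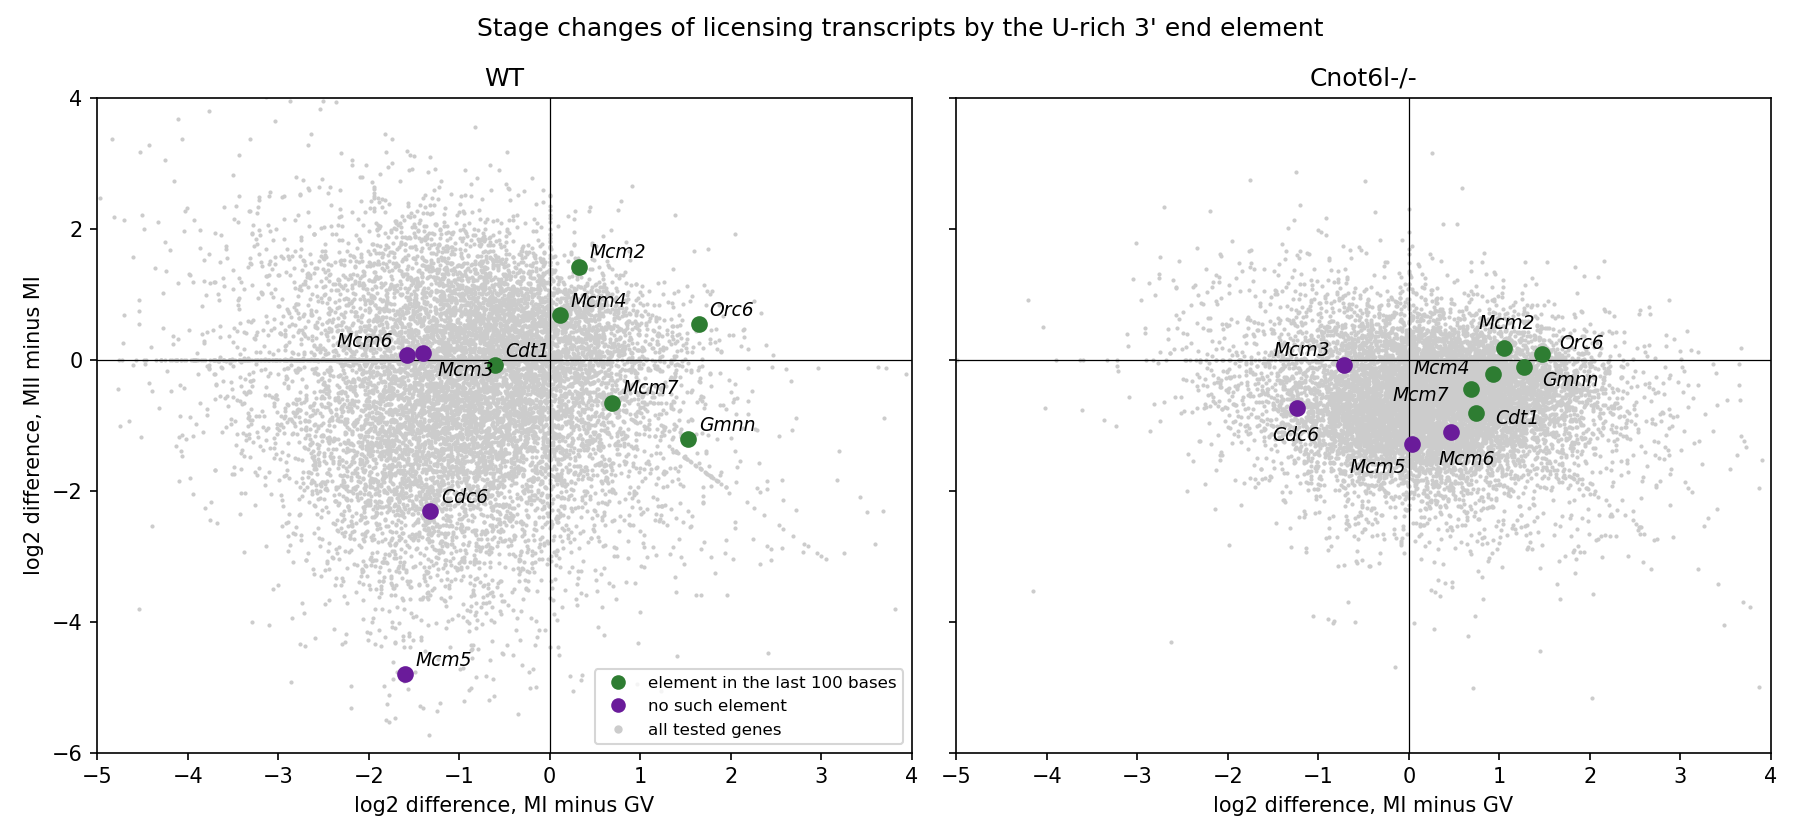
log2(FPKM + 1) change from GV to MI (horizontal) and from MI to MII (vertical) for each licensing gene, coloured by a TTTTAT or TTTTAAT motif in the last 100 bases, over all tested genes in grey (25 genes in WT and 14 in Cnot6l-/- lie outside the axes). In WT the 6 genes with the motif lie to the right of the 4 without it; with median scaling the order along the horizontal axis is the same for these groups.

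Set beside the 3′ end motifs, the 6 members with a motif had a median change of 0.50 from GV to MI in WT and the 4 without had -1.49. Over all tested genes those medians were -0.54 with a motif and -0.93 without. Of all genes with a motif 6.82% were called higher at that step and 15.6% lower, against 2.36% and 22.6% of those without. From MI to MII the members measured 0.23 with and -1.12 without, and all genes 0.02 and -0.37. In the knockout the members measured 0.99 with and -0.34 without at the first step, and all genes 0.41 and 0.24. At the second the members measured -0.16 and -0.91, and all genes -0.39 and -0.63. Gmnn and Orc6, which both carry the TTTTAT motif, rose together at the first step and parted at the second in WT, so genes with the motif did not share a course. The members were not tested as sets.

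Other genes of the replication pathway were taken from lists of 74 symbols, of which 72 were tested. In the first WT step 7 were called higher and 21 lower, against 3.06% and 21.7% of all tested genes (median -0.83, against -0.87). With median scaling the balance turned, to 11 higher and 5 lower against 7.08% and 7.67%. In the second WT step 14 were higher and 13 lower, against 5.68% and 16.4% (median -0.04, against -0.27), and with median scaling 21 and 10, against 9.08% and 15.1%. In the knockout 18 were called higher and 0 lower at the first step, against 8.89% and 1.35%, which became 8 and 0 with median scaling, against 4.23% and 2.32%. At the second step 0 were higher and 8 lower, against 0.163% and 7.18%, which became 2 and 0, against 0.847% and 0.683%. At MII 18 were higher and 5 lower in the knockout than in WT, against 25.4% and 3.2%, which became 9 and 14 with median scaling, against 16.2% and 8.39%, and the median was 0.51 against 0.81. Among 10 genes of helicase activation and origin firing 2 rose and 2 fell at the late WT step, against 5.68% and 16.4% of all tested genes. With median scaling 2 rose and 1 fell, against 9.08% and 15.1%. Cdc45, which joins the loaded helicase to make it active, rose from 24.3 and 35.0 FPKM to 118 and 137 (2.08 ± 0.28, adjusted p = 0.000457). Gins2, a subunit of the GINS complex that joins it too, fell from 89.9 and 83.2 to 30.3 and 11.7 (-2.13 ± 0.38, adjusted p = 0.00268). Cdc45 was lower in the knockout at MII, at 56.9 and 53.7 FPKM (-1.18 ± 0.28, adjusted p = 0.00999).

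Of 34 replication fork genes 6 were called higher and 9 lower at the late WT step, against 5.68% and 16.4% of all tested genes. With median scaling these were 7 and 8, against 9.08% and 15.1%. The largest called rise was that of Pola2, from 35.5 and 30.5 FPKM to 86.6 and 114 (1.57 ± 0.32, adjusted p = 0.00541), against 50.95 and 38.4 at knockout MII. Top1 rose next most, from 80.3 and 86.3 FPKM to 216 and 192 (1.28 ± 0.20, adjusted p = 0.00124). Fen1, the flap endonuclease that trims Okazaki fragments, read 31.5 and 80.3 FPKM at WT MI and 1.38 and 1.34 at MII (-4.44 ± 0.41, adjusted p = 3.66e-05), against 96.5 and 140.2 at knockout MII. Dscc1, part of a loader of the sliding clamp, read 37.7 and 43.0 at WT MI, was listed at 0 in both WT MII libraries, and read 41.8 and 46.7 at knockout MII. Pcna, the clamp itself, rose from 247 and 268 FPKM at WT GV to 441 and 393 at MI (0.69 ± 0.15, adjusted p = 0.00863). Of 16 genes that control licensing through degradation or kinases 5 rose and 2 fell at the late WT step, against 5.68% and 16.4%, and with median scaling 10 rose and 1 fell, against 9.08% and 15.1%. Skp1a, a subunit of the SCF ubiquitin ligases, fell from 5872 and 6204 FPKM to 1519 and 1363 (-2.07 ± 0.06, adjusted p = 6.71e-09), and stood at 7471 and 7001 in the knockout at MII. Cdc7, the kinase that starts origin firing, rose from 12.9 and 7.72 to 28.4 and 45.5 FPKM (1.75 ± 0.41, adjusted p = 0.0117).

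Across the 12 libraries, the genes whose log2 levels ran most like Mcm5 were Mki67ip (r = 0.994), Tacc3 (0.993) and Psmc1 (0.993), out of 7777 compared. For Orc6 they were Oosp1 (0.980), Magoh (0.975) and Mob4 (0.973). For Gmnn they were Mphosph6 (0.956), Sep15 (0.947) and Dut (0.930). Among the members Mcm2 ran with Mcm4 (0.856) and Orc6 (0.820) and against Mcm5 (-0.75), and Mcm5 ran with Cdc6 (0.858). These are descriptions over 12 libraries of 6 groups that share stage and genotype.

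Some markers of other cells were lower at the later WT stages, as Mcm5 was, and others were not. Serpine2, the highest of them, read 521 and 589 FPKM at WT GV, 870 and 737 at MI, then 1009 and 969 at MII. Oocyte markers differed among themselves too. Nobox read 1181 and 1285 FPKM at WT GV, 368 and 435 at MI, then 104 and 115 at MII. Oosp1 read 1480 and 1457, then 6233 and 5721, then 7941 and 7652. Inha, a granulosa cell product, read 201 and 239 FPKM at WT GV, 22.7 and 37.6 at MI, then 0 and 0 at MII, and 113 and 152, 23.4 and 25.0, and 4.46 and 12.7 in the knockout. Of the 18 cumulus and granulosa markers 10 were above 1 FPKM in both libraries at WT GV, 10 at MI and 5 at MII, and 13, 11 and 6 in the knockout. Their summed level was 852 to 948 FPKM at WT GV, 894 to 1011 at MI and 1033 to 1092 at MII, and 690.03 to 823, 1228 to 1268 and 897 to 909 in the knockout. Without Serpine2 the other 17, a sum taken after the values were seen, gave 331 to 359 FPKM at WT GV, 141 to 158 at MI and 64.1 to 82.8 at MII. In the knockout that sum was 171 to 257, 169 to 199.7 and 88.1 to 131. It was lower at each later WT stage, but it includes Inha, which made up most of it at WT GV. Single markers did not share that course: Ptx3 read 0 and 0 at WT GV and 32.1 and 40.2 at MI. The proliferation marker Mki67 read 10.1 and 6.74 FPKM at WT GV, 2.65 and 0.47 at MI, then 0.53 and 1.10 at MII, and 6.74 and 13.6, 7.39 and 6.76, and 5.68 and 6.14 in the knockout. The proliferation markers did not share a course in WT. Ccnb2 read 381 and 504, then 723 and 599, then 411 and 537. Birc5 read 2596 and 2663, then 2582 and 2672, then 683 and 793. Tk1 read 191 and 313, then 66.9 and 130, then 50.55 and 37.9. Top2a read 18.9 and 29.2, then 4.84 and 18.2, then 8.31 and 2.28. The summed level of 5 proliferation markers was 3197 to 3516 FPKM at WT GV, 3380 to 3420 at MI and 1153 to 1371 at MII, and 2689 to 2924, 4225 to 4227 and 1958 to 2062 in the knockout. Birc5 made up most of it, and the other 4 summed to 601 to 853, 748 to 797 and 471 to 578 in WT. The part of these markers' cells in the values of Mcm5, Mcm6 and Cdc6 was not tested.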

How the data were processed

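The authors deposited FPKM values for 12 polysome-bound RNA libraries in 1 table of all libraries, and the deposited tables per library hold the same values. The submitters' processing notes list Cufflinks 2.2.1, Bowtie2 2.1.0, TopHat2 2.0.11 and CASAVA 1.8, with build mm9; settings, annotation and depth are not given there, so precision is judged from replicates. The deposited FPKM were analysed as log2(FPKM + 1) with limma 3.58.1 in R 4.3.3 for the 11667 genes averaging 1 FPKM or more. The fit had 6 group means (residual df 6, empirical Bayes with an abundance trend), 2-sided, with Benjamini-Hochberg adjustment over all tested genes. It was tested on simulated data without a shift of all genes between groups, so that test does not cover the shifts seen here. Alternatives were a pseudocount of 0.1, no filter, equal library totals (TPM), median scaling, groups compared alone, a replicate block and each library left out. Median scaling used the 5734 genes that averaged 10 FPKM or more and were above 0 in all 12 libraries. Named genes are the 10 members, Cnot6l, up to 2 called genes per direction from each list of replication genes in each comparison, and the 3 genes closest to each member by Pearson's r; only some are printed. Orc3, Cops6 and the single cell type markers fall outside this rule and were chosen after their values were seen. All origin recognition subunits were also set beside Orc6 only after their values were seen. Members and lists were chosen with earlier results of these data known. Replicate numbers did not pair the libraries (correlations of replicate differences between groups from -0.0292 to 0.0547), so the block is an alternative only.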

Additional observations from a re-analysis of the deposited data

Results flagged for a closer look

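These 5 values are here because the stage change itself differed between WT and Cnot6l-/- oocytes in limma's test of the difference (knockout step minus WT step, Benjamini-Hochberg adjusted over all tested genes). From GV to MI the difference was 1.63 for Mcm5 (adjusted p = 0.0305), from steps of -1.59 in WT and 0.03 in the knockout. It was 2.04 for Mcm6 (adjusted p = 0.00924), from -1.58 and 0.46, and 1.36 for Cdt1 (adjusted p = 0.0249), from -0.61 and 0.75. Relative to the median of all tested genes, which was 1.13, they were 0.50, 0.91 and 0.23. Mcm6 was called without each of the 12 libraries in turn, but not with equal totals (1.15, adjusted p = 0.22) or with median scaling (0.99, adjusted p = 0.338). Mcm5 and Cdt1 were not called with either (adjusted p from 0.513 to 0.818).

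From MI to MII the difference was 3.52 for Mcm5 (adjusted p = 0.000992), from steps of -4.80 in WT and -1.28 in the knockout, and was called in all 18 alternatives with adjusted p from 0.000259 to 0.0133. For Gmnn it was 1.11 (adjusted p = 0.0412), from -1.21 and -0.11. The Gmnn call was lost without the filter on low genes (adjusted p = 0.156) and with the groups compared alone (adjusted p = 0.0844). As given above, it was also lost in most fits without 1 library. It held with equal totals (1.30, adjusted p = 0.0208) and with median scaling (1.47, adjusted p = 0.0141).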

How the results depend on the processing

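Counts are members called, given as deposited and then under the alternative. Counts over all tested genes moved as well, also when a library was left out. Without the filter on low genes 1 member (Mcm2) in place of 3 was higher in the late WT step. In the late knockout step 1 (Mcm5) in place of 2 was lower, and in the difference of late steps 1 (Mcm5) in place of 2 was higher. Over all genes these counts were 522, 587 and 235 of 23235, in place of 663, 838 and 328 of 11667. With equal totals (TPM) 0 in place of 4 were higher in knockout than WT at MI, 1 (Mcm5) in place of 2 higher and 2 (Mcm2 and Orc6) in place of 0 lower at MII, 1 (Orc6) in place of 4 higher in the first knockout step, 0 in place of 2 lower in the late one, and 0 in place of 3 higher in the difference of first steps. With median scaling these 6 counts were 0, 1, 3, 2, 0 and 0; in addition 2 were lower at MI in place of 0, 5 in place of 2 higher and 0 in place of 2 lower in the first WT step, and 1 (Orc6) in place of 0 lower in the difference of first steps. Over all genes the same 6 counts were 3257, 2967, 373, 1037, 838 and 1680 of 11667 as deposited. They were 503, 2056, 751, 319, 122 and 112 of 11341 with equal totals, and 247, 1870, 970, 489, 79 and 75 of 11565 with median scaling. Of the member values called as deposited, knockout against WT at MI changed sign with median scaling for Mcm4 (-0.155, adjusted p = 0.768) and Cdt1 (-0.0848, adjusted p = 0.908). Orc6 at MI, not called as deposited (0.15, adjusted p = 0.504), turned to -0.812 (adjusted p = 0.0243). With the groups compared alone 1 (Mcm5) in place of 2 was higher at MII, 0 and 0 in place of 3 and 2 were called in the late WT step, where 0 of all 11667 genes were called in either direction, and 1 (Mcm5) in place of 2 was higher in the difference of late steps. Over all genes, the groups compared alone gave 1365 in place of 2967 higher at MII and 186 in place of 328 higher in the difference of late steps. The cause of these moves was not tested.

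Leaving out each library in turn left 1 library in a group. In these fits the number of members called changed in every comparison and direction that had calls as deposited. Directions without a called member as deposited stayed without one. Counts over all tested genes changed in these fits too, so such moves are not particular to the members. With the replicate block no count moved by over 1.5 times: the late WT rise of Orc6 (0.541, adjusted p = 0.0592) and the early knockout rise of Mcm2 (1.05, adjusted p = 0.0633) lost their calls. A pseudocount of 0.1 ended 1 call of 26, that of Mcm2 in the early knockout step (adjusted p = 0.0588). With 2 libraries per group and depth in reads unknown, changes of low or uneven messages such as Mcm3 and Cdc6 were not resolved.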
